A study of Mus musculus with 6 samples.

Results

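Voltage-gated sodium and calcium channel subunit genes were described in mouse motor neurons of e12.5 embryos, taken from the cervical or the thoracic region of the spinal cord. The members were chosen by symbol: the pore-forming and auxiliary subunits named Scn with a number and the letter a or b, Cacna1a to Cacna1i, Cacna1s, Cacna2d1 to Cacna2d4, Cacnb1 to Cacnb4 and Cacng1 to Cacng8. This gave 40 of the 56805 genes of the count table, 35 of which had enough reads to be tested. The 3 cervical and 3 thoracic libraries all came from embryos of control genotype with no treatment, so region was the difference between the groups. The strain, the sex, the method of isolating the motor neurons and the number of embryos per library were not found in the labels. The series design calls the replicates biological without saying whether they are embryos, litters or pools. The p-values set the difference between the regions against the spread between these libraries within a region.

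Voltage-gated sodium channels carry the rising phase of the action potential through a large alpha subunit, which beta subunits escort and modulate. Voltage-gated calcium channels couple depolarisation to calcium entry through an alpha1 pore, which defines the L, P/Q, N, R or T type. Cytoplasmic beta and extracellular alpha2delta subunits bring alpha1 pores of the L, P/Q, N and R types to the membrane. Several gamma subunits instead accompany AMPA-type glutamate receptors. Embryonic motor neurons fire spontaneously before their circuits have matured, and these channels shape that firing.

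Library totals lay between 32103071 and 33790634 counts, apart from thoracic replicate 1 with 53186131. The 40 genes took 0.339 to 0.381% of the counts of a library. Motor neuron markers were present, with a sum over 7 genes of 255 to 504 CPM (cervical) and 327 to 493 CPM (thoracic). CPM is the read count of a gene scaled to a common library size, with TMM correction for composition. No motor neuron marker was called, and with the replicate block described below 2 were called higher in thoracic libraries. These were Isl1 and Slc18a3, with log2 fold changes (cervical minus thoracic) of -0.62 (SE 0.16) and -0.51 (SE 0.30) without the block. The median log2 fold change over the 7 genes was -0.37. Mnx1, a homeodomain gene of motor neurons and the most abundant of the 7 per kb of exon, leaned the other way. It stood at 186 ± 47.3 CPM (cervical) and 166 ± 30.2 CPM (thoracic), with a log2 fold change of 0.16 (SE 0.17). Markers of other neural cells were present too. The sums over 12 interneuron genes, 1458 to 1606 CPM (cervical) and 1271 to 1317 CPM (thoracic), did not overlap. Of the 12, Pax2 and Slc6a5 were called higher in cervical libraries, and Gata3, Lmx1b and Sim1 were called higher in thoracic ones. The sums over 8 progenitor genes did not overlap either, at 776 to 928 CPM (cervical) and 959 to 1194 CPM (thoracic). None of the 8 was called, and with the block 3 were called higher in thoracic libraries. The 6 Schwann and neural crest genes, of which Foxd3 made up most and alone was called (higher in cervical libraries), summed to 240.1 to 261 CPM (cervical) and 189 to 198 CPM (thoracic), also without overlap. The 5 mesenchyme genes summed to 13.6 to 148 CPM (cervical) and 84.04 to 157 CPM (thoracic). None of the 5 was called, and with the block Col1a1 and Col3a1 were called higher in thoracic libraries. The highest of the cervical values was that of cervical replicate 3. No marker was at 0 in all libraries. General neuronal genes summed to 6522 to 6911 CPM (cervical) and 6396 to 7223 CPM (thoracic) and overlapped. The part of this make-up in the results below was not tested, and in such bulk samples fewer cells of a type and less RNA per cell cannot be told apart.

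Of the 35 tested subunit genes, 3 passed edgeR's quasi-likelihood test of cervical against thoracic libraries at a Benjamini-Hochberg adjusted p below 0.05, which is 8.57% of them, against 0.542% of all 21972 tested genes. Cacna2d3 was higher in cervical libraries, a direction called for 0.191% of all genes. Scn3b and Cacna1e were higher in thoracic libraries, a direction called for 0.35% of all genes. Samples with the same replicate number deviated together, and with that number as a block 5 members were called (14.3%, against 1.97% of all genes). Of these Cacna2d3 was higher in cervical libraries, a direction called with the block for 0.573% of all genes. Scn3b, Cacna1e, Scn9a and Cacnb2 were higher in thoracic libraries, a direction called with the block for 1.39% of all genes. An unadjusted p below 0.05 was reached by 9 members (25.7%), against 8.47% of all genes. Most subunit genes stood at nearly the same level in both regions. The absolute log2 fold change was under 0.25 for 24 of 35 members (68.6%), against 71.0% of all tested genes, and its median was 0.12, against 0.13.

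**Figure D1:**
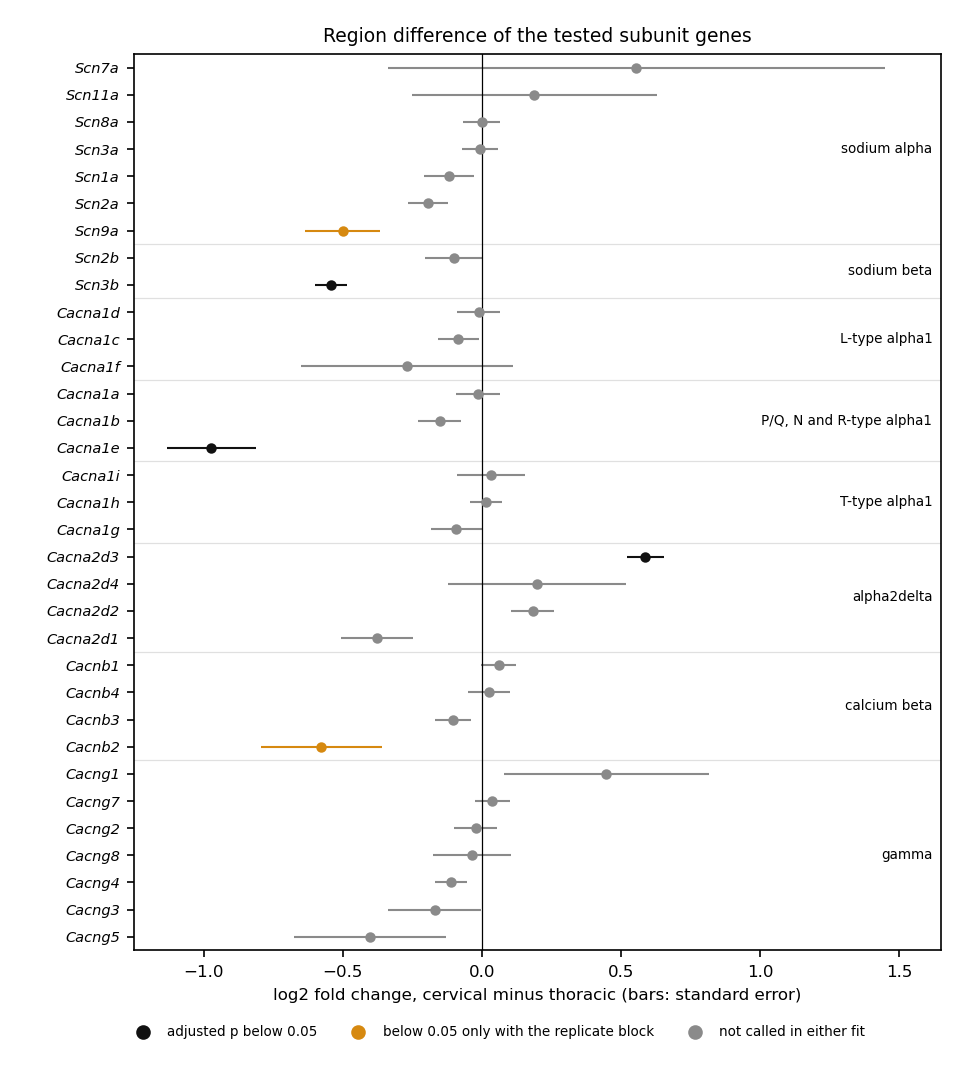
The horizontal axis gives the log2 fold change, cervical minus thoracic, of tested members, with its standard error as the bar, in black where called, in orange where called only with the replicate block and in grey otherwise. Cacna2d3 stands to the right at 0.59, Scn3b and Cacna1e to the left at -0.54 and -0.97, and most other members lie near 0.

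Cacna2d3 encodes an alpha2delta subunit, an extracellular protein that raises the surface density of calcium channels and takes part in synapse formation. It stood at 221, 228 and 225 CPM in cervical replicates 1, 2 and 3, against 135, 157 and 156 CPM in thoracic replicates 1, 2 and 3. All cervical libraries lay above all thoracic ones, with means of 225 ± 3.13 CPM (cervical) and 149 ± 12.54 CPM (thoracic; SD, n = 3 each). Cacna2d3 was 1.503-fold higher in cervical libraries (edgeR adjusted p = 0.00954, log2 fold change 0.59 with SE 0.07). Within replicate numbers 1, 2 and 3 the log2 ratio was 0.71, 0.53 and 0.53. The gene lies on the minus strand of chromosome 14, 28626900 to 29443821 (mm39), and it has the longest span of all members, 817 kb. The call was lost without cervical replicate 3 (edgeR adjusted p = 0.0530), where the log2 fold change was 0.59.

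Scn3b encodes a sodium channel beta subunit, a single-pass membrane protein with an immunoglobulin-like domain that binds the alpha subunit without a disulfide bond. Its level was 139, 128 and 128 CPM in cervical replicates 1 to 3, against 196, 187 and 191 CPM in the thoracic replicates. The groups did not overlap and averaged 131 ± 6.29 CPM (cervical) and 191 ± 4.21 CPM (thoracic; SD, n = 3 each). Scn3b was 1.46-fold higher in thoracic libraries (edgeR adjusted p = 0.00841, log2 fold change -0.54 with SE 0.06), with log2 ratios of -0.50, -0.55 and -0.58 within the 3 replicate numbers. It lies on the plus strand of chromosome 9, 40180513 to 40202914 (mm39). Without cervical replicate 3 the adjusted p was 0.0530, and the gene was called when any other single library was left out.

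Cacna1e encodes the R-type alpha1 pore, which opens at intermediate to high voltage and contributes to transmitter release and to dendritic calcium entry. It had 95.5, 74.0 and 75.8 CPM in cervical replicates 1 to 3, against 155, 122 and 204 CPM in the thoracic replicates. Every thoracic library exceeded every cervical one, and thoracic replicate 3 was the highest. The gene was 1.96-fold higher in thoracic libraries (edgeR adjusted p = 0.0288, log2 fold change -0.97 with SE 0.16). The coefficient of variation was 14.6% over the cervical and 25.8% over the thoracic libraries. Within replicate numbers the log2 ratios were -0.70, -0.72 and -1.43, so the pair of replicate 3 held the largest gap. The call was lost without cervical replicate 2 (edgeR adjusted p = 0.109), cervical replicate 3 (0.146), thoracic replicate 1 (0.0528) or thoracic replicate 3 (0.0622), and the log2 fold change nearest to 0 in these 4 fits was -0.76, without thoracic replicate 3. Cacna1e lies on the minus strand of chromosome 1, 154266477 to 154760247 (mm39), and its exons cover 25228 bases, the most of any member.

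**Figure D2:**
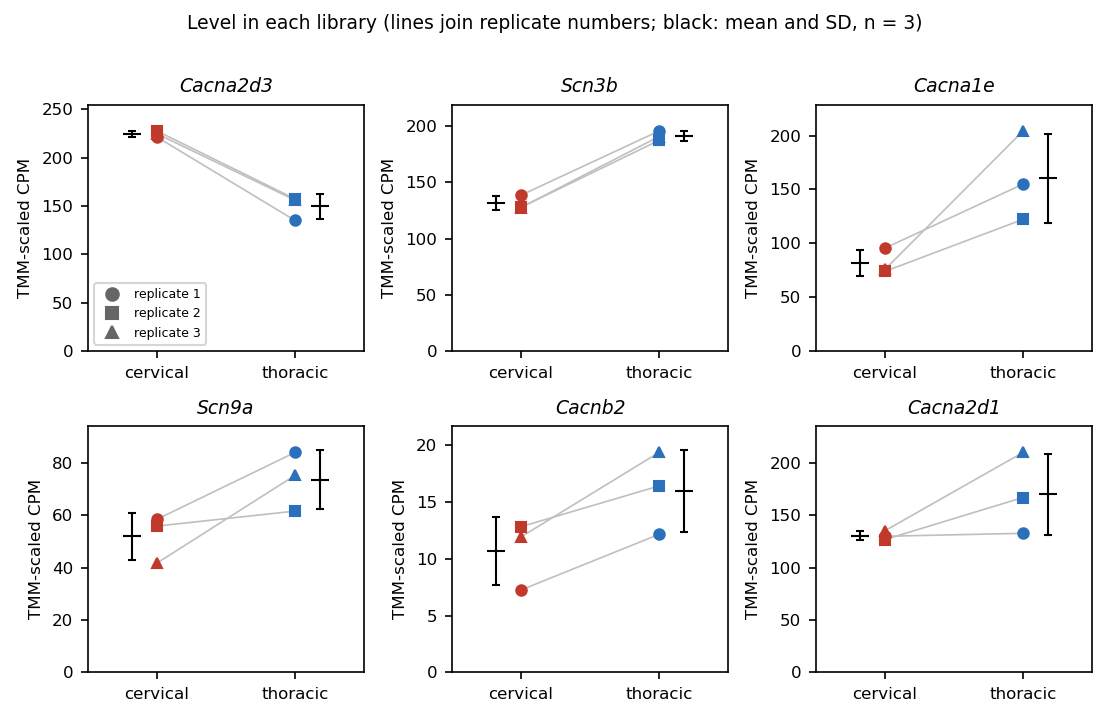
Each panel gives the TMM-scaled CPM of 1 gene in the 3 cervical libraries (left) and the 3 thoracic libraries (right), with lines joining equal replicate numbers and the mean and SD in black. Cacna2d3 descends to the right, Scn3b and Cacna1e ascend, and Cacna2d1 separates in replicates 2 and 3 but not in replicate 1.

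For the called genes Cacna2d3 and Cacna1e, the 250 bases before the start given by RefSeq on GRCm38.p6 are shown, 5′ to 3′ on the gene's strand, with each CpG in capitals. The window of Cacna2d3 is chr14:29721865-29722114 and that of Cacna1e is chr1:154725921-154726170, both on the minus strand. The Cacna1e start is a downstream one, since 5 of 8 transcripts in GENCODE vM21 (GRCm38) begin upstream of it, the farthest by 159 kb. For Cacna2d3 0 of 9 do. Scn3b has no entry in the RefSeq table.
Cacna2d3: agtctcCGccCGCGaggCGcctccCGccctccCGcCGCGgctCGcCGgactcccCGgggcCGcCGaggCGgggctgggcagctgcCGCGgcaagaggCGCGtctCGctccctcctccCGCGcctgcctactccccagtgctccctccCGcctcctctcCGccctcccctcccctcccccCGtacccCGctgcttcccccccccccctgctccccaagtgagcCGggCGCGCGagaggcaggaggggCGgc
Cacna1e: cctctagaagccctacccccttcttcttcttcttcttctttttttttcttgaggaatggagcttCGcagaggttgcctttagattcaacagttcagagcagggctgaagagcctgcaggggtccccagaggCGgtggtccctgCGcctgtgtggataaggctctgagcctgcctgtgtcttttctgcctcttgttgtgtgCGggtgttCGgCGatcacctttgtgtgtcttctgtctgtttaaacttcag
The Cacna2d3 window is 80.0% G or C and holds 30 CpG. The window at the downstream start of Cacna1e is 52.0% G or C and holds 6, and its upstream starts were not examined. Over all 32851 windows of that length the median was 52.4% and 6 CpG. The table holds 41 windows of 30 members, with medians of 56.8% and 8 CpG. On both strands, the Hox-Pbx motif TGATTNAT was found in 1 of these windows, that of a downstream start of Scn8a (2.44%, against 2.82% of all windows). The homeodomain motif TAATTA was in 0 of them (against 4.84% of all), and so was TTCAGCACC, the left part of the site bound by the repressor Rest (against 0.301%). A missing match says only that these letters are not in these windows, and which start each gene used was not measured.

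The 4 alpha2delta genes did not share a direction. Summed per kb of exon, they reached 52.3 ± 0.977 CPM per kb (cervical) and 44.9 ± 3.06 CPM per kb (thoracic; SD, n = 3 each), without overlap. Cacna2d3 made up 49.2 ± 0.825% of this sum in cervical and 38.1 ± 0.909% in thoracic libraries. The share of Cacna2d1 was 20.1 ± 0.494% in cervical and 30.3 ± 5.10% in thoracic libraries. Cacna2d1, the widely expressed subunit that binds gabapentin, had 130.1, 127 and 135 CPM in the cervical replicates, against 133, 167 and 210.2 CPM in the thoracic ones. Thoracic replicate 1 lay among the cervical libraries and thoracic replicate 3 far above them. Its log2 fold change was -0.38 (SE 0.13, edgeR adjusted p = 0.380, blocked 0.0686), and it was called only without thoracic replicate 1 (0.0426) or with no low-count filter, among the settings tried.

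Cacna2d2, a second gabapentin-binding subunit, stood at 122, 126 and 131 CPM (cervical) and 121, 116 and 97.9 CPM (thoracic). The groups did not overlap, but cervical replicate 1 and thoracic replicate 1 were close, and the gene was not called (edgeR adjusted p = 0.533, log2 fold change 0.18 with SE 0.08). Cacna2d4, known from photoreceptors, was near the detection limit with 27, 28 and 26 counts (cervical) and 38, 24 and 23 counts (thoracic). Its scaled values did not overlap, at 0.837, 0.821 and 0.814 CPM (cervical) and 0.709, 0.736 and 0.710 CPM (thoracic), and it was not called (edgeR adjusted p = 0.943). Non-overlapping groups were found for 8 of 35 tested members (22.9%), against 13.7% of all tested genes. Cacna2d3 is followed on chromosome 14 by the L-type pore gene Cacna1d, 318 kb away with 10 genes between, and Cacna1d had a log2 fold change of -0.01 (SE 0.08).

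**Figure D3:**
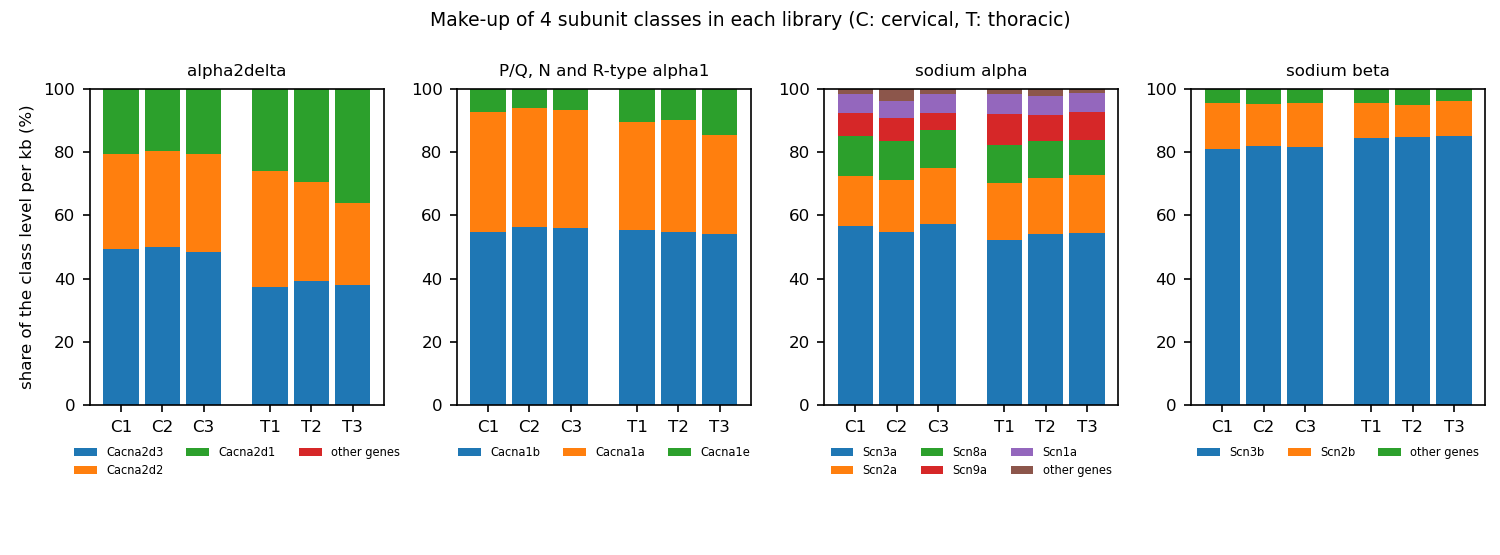
Stacked bars give the share of each gene in the level per kb of its class, in percent, for cervical (C) and thoracic (T) replicates 1 to 3. Cacna2d3 holds 49.2% of the alpha2delta level in cervical and 38.1% in thoracic libraries, named genes hold at least 5% in cervical libraries, the rest stand as other genes, and Scn3a and Scn3b lead their classes in all 6.

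Among the sodium channel alpha genes, Scn3a, the alpha subunit typical of embryonic neurons, was the most abundant in both regions. It held 56.2 ± 1.23% of the class level per kb in cervical and 53.5 ± 1.20% in thoracic libraries. Scn3a had 448, 420.2 and 431 CPM (cervical) and 442, 403 and 461 CPM (thoracic), with overlap (edgeR adjusted p = 0.992, log2 fold change -0.01 with SE 0.06). Scn2a, found early on axons, followed at 10.1 ± 0.365 CPM per kb (cervical) and 11.6 ± 1.04 CPM per kb (thoracic). Then came Scn8a, the main alpha subunit of mature nodes of Ranvier, at 7.44 ± 0.383 and Scn9a at 4.08 ± 0.706 CPM per kb in cervical libraries, against 7.45 ± 0.491 and 5.77 ± 0.885 CPM per kb in thoracic ones. Scn1a, prominent in mature inhibitory neurons, stood at 3.56 ± 0.144 CPM per kb (cervical) and 3.86 ± 0.407 CPM per kb (thoracic). These levels divide by all annotated exonic bases of a gene, whether or not a motor neuron uses them.

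Scn9a, known for its role in sensory and sympathetic neurons, had 58.6, 55.9 and 41.8 CPM in the cervical replicates, against 84.1, 61.7 and 75.3 CPM in the thoracic ones. The groups did not overlap, though cervical replicate 1 and thoracic replicate 2 were close. Scn9a had a log2 fold change of -0.50 (SE 0.14, edgeR adjusted p = 0.205) and was called only with the replicate block (0.0256), with DESeq2 (0.00927) and with no low-count filter, among the settings tried. Beside it, 7 sensory ganglion markers summed to 129 to 210.1 CPM (cervical) and 116 to 155 CPM (thoracic), which overlapped. Of the 6 tested markers none was called in either direction, 2 were called higher in cervical with the block, and none of the 7 was at 0 in all libraries. Scn2a had 129, 126 and 135 CPM (cervical) and 156, 133 and 157 CPM (thoracic), with thoracic replicate 2 among the cervical values (edgeR adjusted p = 0.442, log2 fold change -0.19 with SE 0.07). Scn8a had a log2 fold change of 0.00 (SE 0.07) and Scn1a one of -0.12 (SE 0.09).

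Of the alpha genes, 5 lie together on chromosome 2 in the order Scn3a, Scn2a, Scn1a, Scn9a and Scn7a, between 65287462 and 66615258 (mm39). Their log2 fold changes along the chromosome were -0.01, -0.19, -0.12, -0.50 and 0.56. The neighbours Scn1a and Scn9a, 39.2 kb apart, thus had different fold changes, but the difference between the 2 genes was not tested. Scn9a shares 282 exonic bases with Gm13629 on the opposite strand, whose mean count was 1.58% of that of Scn9a. Since the alpha genes are close paralogs and the handling of reads that match several genes was not found in the labels, small differences between them are uncertain.

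Other alpha genes were scarce. Scn11a, of pain-sensing neurons, had 18, 13 and 16 counts (cervical) and 30, 13 and 9 counts (thoracic). Scn4a, the subunit of skeletal muscle, had 6, 1 and 1 counts (cervical) and 12, 4 and 6 counts (thoracic) and was not tested. Scn7a, a sodium-sensing relative known from glia, had 0.434, 6.28 and 0.845 CPM (cervical) and 0.448, 3.80 and 1.05 CPM (thoracic). Scn10a, a further alpha subunit of pain-sensing neurons, had 0, 134 and 5 counts (cervical) and 5, 20 and 0 counts (thoracic). Both genes were highest in the replicate 2 library of each region.

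A count of 0 for Scn10a allows up to 0.0930 CPM in cervical replicate 1 and 0.0926 CPM in thoracic replicate 3 (3 counts of the total, counting error only). In the replicate 2 libraries the 7 ganglion markers summed to 153 CPM (cervical) and 121 CPM (thoracic), the 6 Schwann and neural crest markers to 242 CPM (cervical) and 196 CPM (thoracic), and the 5 mesenchyme markers to 25.1 CPM (cervical) and 105 CPM (thoracic). Each of these sums lay between those of the other 2 replicates of its region. With no low-count filter Scn10a was called higher in cervical libraries, where 134 of its reads came from cervical replicate 2.

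**Figure D4:**
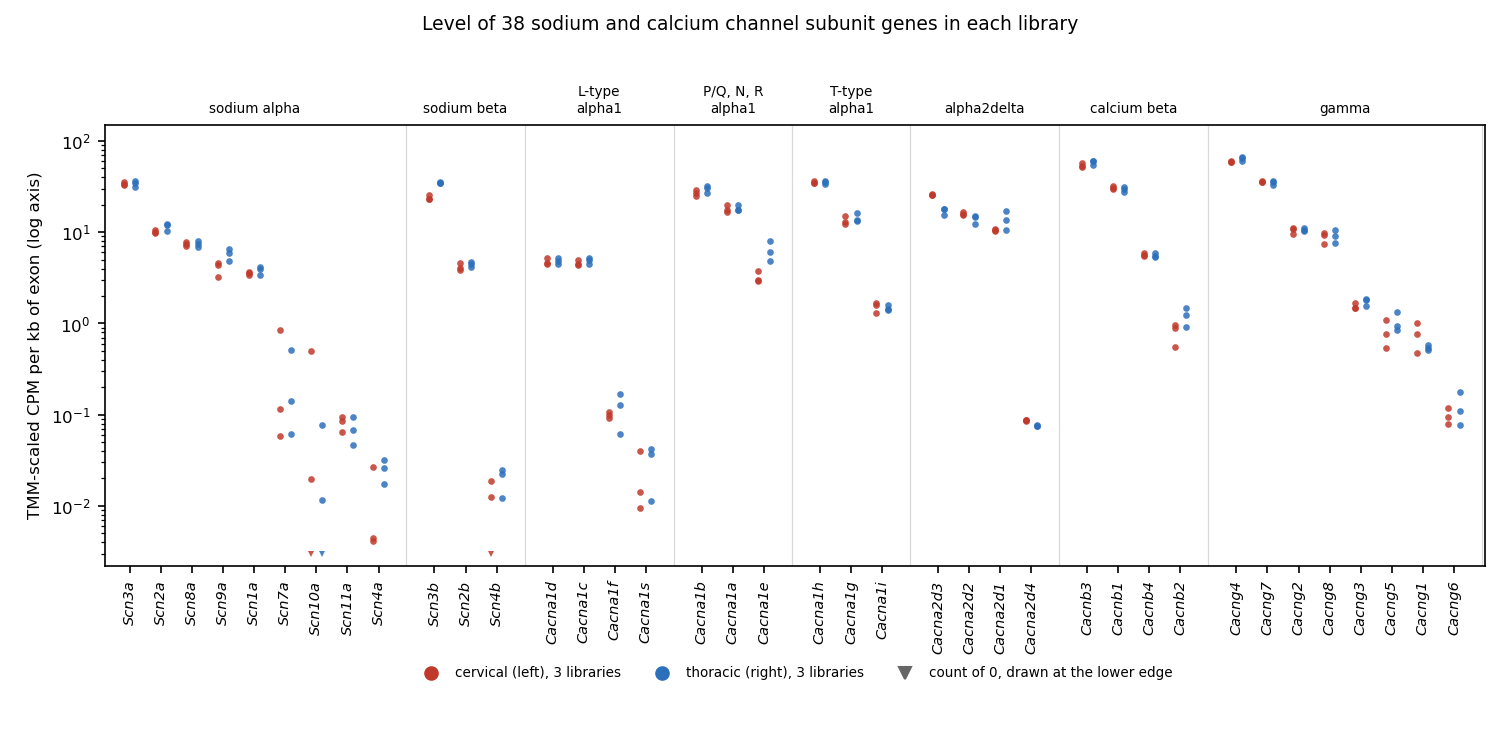
Points give the TMM-scaled CPM per kb of exon in each library on a log axis for 38 members, with triangles at the lower edge for counts of 0, with cervical libraries left and thoracic libraries right of each gene. Cacng4 and Cacnb3 are the highest of all, and Scn7a and Scn10a lie higher in the replicate 2 library of each region than in the other libraries.

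Among the sodium channel beta genes, Scn3b carried 81.4 ± 0.471% of the level per kb in cervical and 84.7 ± 0.393% in thoracic libraries. The class sum was 29.6 ± 1.58 CPM per kb (cervical) and 41.3 ± 1.02 CPM per kb (thoracic), without overlap, while the alpha sum was 60.6 ± 1.63 CPM per kb (cervical) and 64.0 ± 4.59 CPM per kb (thoracic), with overlap. Scn2b, which is bound to alpha subunits by a disulfide bond, stood at 19.3 ± 1.67 CPM (cervical) and 20.7 ± 1.23 CPM (thoracic), with a log2 fold change of -0.10 (SE 0.10). Scn4b, the subunit linked to resurgent current in the adult cerebellum, had 3, 0 and 2 counts (cervical) and 6, 2 and 4 counts (thoracic) and was not tested.

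Among high-voltage calcium channel pores of the synaptic types, Cacna1b (N-type) was the most abundant and Cacna1a (P/Q-type) came next. Both serve transmitter release at motor nerve endings, at different ages. Cacna1b had 286, 265 and 249 CPM (cervical) and 322, 268 and 300.0 CPM (thoracic), with overlap (edgeR adjusted p = 0.676, log2 fold change -0.15 with SE 0.08). Cacna1a stood at 223 ± 19.8 CPM (cervical) and 225 ± 17.3 CPM (thoracic), with a log2 fold change of -0.01 (SE 0.08). Per kb, Cacna1e held 6.71 ± 0.516% of the 3 genes' level in cervical and 11.6 ± 2.54% in thoracic libraries. Cacna1b held 55.7 ± 0.757% in cervical and 54.7 ± 0.645% in thoracic libraries.

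The L-type pores, which signal to the nucleus and sustain plateau potentials, held no call. Their summed level was 9.50 ± 0.724 CPM per kb (cervical) and 9.85 ± 0.651 CPM per kb (thoracic). Per kb, Cacna1d stood at 4.77 ± 0.373 (cervical) and 4.81 ± 0.346 (thoracic) and Cacna1c at 4.61 ± 0.344 (cervical) and 4.89 ± 0.344 (thoracic) CPM per kb, so that neither led in both regions. Cacna1d had 68.3, 78.9 and 70.2 CPM (cervical) and 78.5, 68.0 and 72.7 CPM (thoracic), with overlap. Cacna1c stood at 101 ± 7.51 CPM (cervical) and 107 ± 7.52 CPM (thoracic), with a log2 fold change of -0.09 (SE 0.07). Cacna1f, the retinal pore, had 27, 31 and 31 counts (cervical) and 63, 50 and 18 counts (thoracic). Cacna1s, the pore of skeletal muscle, had 2, 9 and 3 counts (cervical) and 4, 8 and 9 counts (thoracic) and was not tested. Muscle markers were low too, with 8 genes summing to 10.5 to 16.0 CPM (cervical) and 14.8 to 18.7 CPM (thoracic), and Myod1, a regulator of muscle identity, was at 0 counts in the cervical libraries and at 4, 1 and 5 counts in the thoracic ones.

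T-type pores open near the resting potential and need neither beta nor alpha2delta subunits to conduct. Their summed level was 50.3 ± 1.06 CPM per kb (cervical) and 50.9 ± 2.75 CPM per kb (thoracic). Cacna1h led the class with 70.2 ± 2.06% of its level per kb in cervical and 68.9 ± 1.69% in thoracic libraries. It had 337, 342 and 355 CPM (cervical) and 354, 345 and 326 CPM (thoracic), with overlap (edgeR adjusted p = 0.985, log2 fold change 0.01 with SE 0.06). Cacna1g stood at 137 ± 14.3 CPM (cervical) and 146 ± 16.5 CPM (thoracic), with a log2 fold change of -0.09 (SE 0.09), and Cacna1i at 15.0 ± 1.87 CPM (cervical) and 14.7 ± 1.09 CPM (thoracic), with one of 0.03 (SE 0.12). At 35.3 ± 0.953 CPM per kb (cervical) and 35.0 ± 1.43 CPM per kb (thoracic), Cacna1h had the highest level per kb of all 10 calcium channel pore genes.

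Calcium channel beta subunits bind alpha1 pores in the cytoplasm and bring them to the membrane. The 4 genes summed to 91.7 ± 3.73 CPM per kb (cervical) and 94.8 ± 4.74 CPM per kb (thoracic). Cacnb3 held 59.3 ± 0.722% of the class level per kb in cervical and 61.7 ± 0.480% in thoracic libraries, followed by Cacnb1 with 33.6 ± 0.169% in cervical and 31.1 ± 0.878% in thoracic libraries. Cacnb3 had 231, 213 and 210.3 CPM (cervical) and 240.4, 243 and 219.9 CPM (thoracic), with overlap (edgeR adjusted p = 0.766, log2 fold change -0.10 with SE 0.06). Cacnb1 had a log2 fold change of 0.06 (SE 0.06) and Cacnb4 one of 0.03 (SE 0.07). Cacnb2, prominent in the heart, was scarce with 7.25, 12.8 and 11.9 CPM in the cervical replicates, against 12.2, 16.4 and 19.4 CPM in the thoracic ones. Thoracic replicate 1 lay among the cervical libraries, yet within each replicate number the thoracic library was higher, with log2 ratios of -0.74, -0.36 and -0.70. Cacnb2 had a log2 fold change of -0.58 (SE 0.22, edgeR adjusted p = 0.463) and was called with the replicate block (0.0266), and also with no low-count filter.

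Gamma subunits fall into those of muscle calcium channels, Cacng1 and Cacng6, and those that mainly accompany AMPA receptors, such as Cacng2 (stargazin), Cacng3, Cacng4 and Cacng8. The 8 gamma genes summed to 118 ± 1.40 CPM per kb (cervical) and 123 ± 6.88 CPM per kb (thoracic), the highest sum of any class. Cacng4 was the most abundant member per kb, at 59.9 ± 0.982 CPM per kb (cervical) and 64.6 ± 3.21 CPM per kb (thoracic). It had 218, 212 and 212 CPM (cervical) and 234, 241 and 218 CPM (thoracic). The groups did not overlap, by a narrow gap, and the gene was not called (edgeR adjusted p = 0.685, log2 fold change -0.11 with SE 0.06). Cacng7 was next at 35.9 ± 0.336 CPM per kb (cervical) and 35.0 ± 1.92 CPM per kb (thoracic), then Cacng2 with 10.5 ± 0.821 (cervical) and 10.6 ± 0.390 (thoracic) and Cacng8 with 8.88 ± 1.26 (cervical) and 9.10 ± 1.47 (thoracic) CPM per kb. Their log2 fold changes were 0.04 for Cacng7, -0.02 for Cacng2 and -0.04 for Cacng8 (SE 0.06, 0.08 and 0.14).

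Cacng3 and Cacng5 were low, at 4.28 ± 0.335 and 3.04 ± 1.05 CPM in cervical libraries, against 4.81 ± 0.397 and 3.999 ± 0.993 CPM in thoracic ones. The muscle-type Cacng1 had 19, 33 and 40 counts (cervical) and 39, 21 and 22 counts (thoracic). Cacng6 had 6, 8 and 5 counts (cervical) and 19, 7 and 5 counts (thoracic) and was not tested. Cacng1, Cacng4 and Cacng5 lie in this order on chromosome 11, 15.8 kb and 80.0 kb apart, and the strongly expressed Cacng4 thus lies between 2 weakly expressed relatives. Cacng7, Cacng8 and Cacng6 lie likewise within 22.5 kb of the next on chromosome 7, with levels that descend in that order.

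Beside the subunits, 65 genes of 6 lists that assist, anchor or regulate these channels were read, of which 64 were tested. None was called higher in cervical libraries and 1, Gsg1l, was called higher in thoracic ones (1.56%, against 0.542% of all genes). With the replicate block 3 were called higher in thoracic libraries, Gsg1l, Fgf12 and Cntn1 (4.69%, against 1.97%). Gsg1l, an AMPA receptor partner related to the gamma subunits, had 14.2, 16.4 and 15.7 CPM (cervical) and 22.2, 23.6 and 23.3 CPM (thoracic). The groups did not overlap (edgeR adjusted p = 0.0344, log2 fold change -0.58 with SE 0.10), but it was not called when any 1 of the 6 libraries was left out (0.0666 to 0.145).

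Fgf12, a fibroblast growth factor homologue that stays in the cell and binds sodium channel alpha subunits, had 20.8, 23.5 and 25.5 CPM (cervical) and 27.5, 42.4 and 40.5 CPM (thoracic). The groups did not overlap, but thoracic replicate 1 was close to the cervical libraries (edgeR adjusted p = 0.122, log2 fold change -0.66 with SE 0.15, blocked 0.00352). Fgf12 was called also without thoracic replicate 1 (0.0120). Cntn1, an adhesion protein that associates with sodium channels, stood at 30.6, 30.9 and 28.4 CPM (cervical) and 44.0, 35.5 and 40.8 CPM (thoracic), without overlap (edgeR adjusted p = 0.11, log2 fold change -0.42 with SE 0.10, blocked 0.0293).

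The most abundant gene per kb of each list was not called in either fit. By log2 fold change these were the calmodulin gene Calm2 (0.13, SE 0.08), the channel-binding small GTPase gene Rem2 (-0.12, SE 0.08), Unc79 (-0.01, SE 0.06) of the sodium leak channel complex, the mitochondrial calcium uniporter gene Mcu (-0.11, SE 0.13), the AMPA receptor escort Cnih2 (0.00, SE 0.07) and the splicing regulator Rbfox2 (-0.01, SE 0.06). The median log2 fold change was -0.05 over the tested partner genes, -0.04 over the tested subunit genes and 0.00833 over all tested genes.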

How the data were processed

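Total RNA depleted of ribosomal RNA was sequenced. Stranded libraries took 15 PCR cycles and an input between 10 and 20 ng, per the labels' protocols. The deposited values are raw counts of reads per gene on mm39. The submitters' processing notes name FastQC 0.11.9, STAR 2.7.5b and featureCounts 2.0.1. The annotation release and the strand setting were not found in them. Without strand, reads of overlapping antisense genes cannot be told apart. Of the 40 members, 11 share exonic bases with another gene and none of the 3 called genes does. The mean count of the overlapping gene was at most 3.42% of that of a tested member. With the strand setting unknown, that count may leave out reads on the shared bases, so it sets no upper limit on them.

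Genes were filtered with filterByExpr of edgeR 4.0.16 (R 4.3.3, minimum count 10), which kept 21972 of 56805. Counts were TMM-scaled and fitted over all kept genes with edgeR's quasi-likelihood test, region as the only term, prior count 0.125 and Benjamini-Hochberg adjustment over all of them. Log2 fold changes are cervical minus thoracic, and the SE is the size of the fold change over the square root of the F statistic. Levels per kb divide scaled CPM by the exonic length deposited with the counts. The script was tested on simulated data. Libraries with equal replicate numbers in their titles deviated together from their region's mean, with correlations of 0.207, 0.201 and 0.240, and at most -0.0116 between others, so the numbers were taken as pairs and blocked values are given where they change a call. Alternatives were RLE scaling, library totals, other filters, DESeq2 1.42.0, limma-voom (3.58.1) and leaving out each library. The chi-square per degree of freedom between libraries of a region, 1 for counting noise alone, was 10.1 to 16.2. The members, gene lists and tests were chosen with earlier results of these data known. The values of 2 members are not reported here, although these members enter every fit, count and class sum. Values in every library are given for the other members called in either fit, with an unadjusted p below 0.05, without overlap between regions or most abundant per kb in their class, and partner genes are named where called in either fit or most abundant in their list. Motifs and the promoter windows shown were chosen after the calls were known. Sequences come from RefSeq on GRCm38.p6, and gene coordinates are the deposited mm39 ones.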

Additional observations from a re-analysis of the deposited data

How the results depend on the processing

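Of all tested genes 119 were called, and 747 with no low-count filter, 409 with DESeq2, 432 with the replicate block and 9 to 159 when 1 library was left out (9 without cervical replicate 3, 37 without thoracic replicate 2, 41 without cervical replicate 2 and 45 without thoracic replicate 3). Of the subunit genes 3 were called, 7 with no low-count filter and 5 with the replicate block. Leaving out 1 library gave 0 to 3, with 0 by edgeR's test without cervical replicate 3, where 8 had an unadjusted p below 0.05. DESeq2 gave 4 and limma-voom 3. RLE scaling, library totals and a mean CPM of at least 1 gave 3. Cacna2d3, Scn3b and Cacna1e kept their direction under all 13 alternatives each. The replicate block added Scn9a and Cacnb2, and among partner genes Fgf12 and Cntn1, and changed no other call of a subunit or partner gene. Genes reported here that were called nowhere and changed sign did so when 1 library was left out, with these ranges of log2 fold change over the 6 fits: Cacna1a -0.0856 to 0.0480, Cacna1d -0.0797 to 0.0391, Cacna1f -0.570 to 0.0353, Cacna1g -0.179 to 0.00114, Cacna1h -0.0195 to 0.0341, Cacna1i -0.0398 to 0.131, Cacnb4 -0.0113 to 0.0729, Cacng2 -0.0665 to 0.0406, Cacng7 -0.00375 to 0.0753, Cacng8 -0.146 to 0.0838, Scn11a -0.0164 to 0.494, Scn3a -0.0578 to 0.0351, Scn7a -1.44 to 1.81 and Scn8a -0.0478 to 0.0426. The cause was not tested. Scn7a rests on the replicate 2 libraries. With no low-count filter the additions were Cacna2d1, Cacnb2, Scn9a and Scn10a. The standard error of the log2 fold change was 0.89 for Scn7a, 0.44 for Scn11a and 0.38 for Cacna1f, against 0.06 for Scn3b.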

Other observations

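The subunit genes are long. Their median span from first to last exon was 105 kb, against 13.6 kb for all tested genes, and 20 of 40 spanned more than 100 kb. Among all 2407 tested genes of such a span, 49 were called (2.04%), and their median log2 fold change was -0.0461. They are also well covered, with a mean of at least 20 CPM for 24 of 40. Of all 7814 tested genes at or above that level, 82 were called (1.05%). Among calcium release channels, Ryr2, named here after its values were seen, had 81.8, 134 and 109 CPM (cervical) and 84.01, 82.5 and 73.7 CPM (thoracic). Cervical replicate 1 lay among the thoracic values, and Ryr2 was not called (edgeR adjusted p = 0.346, log2 fold change 0.44 with SE 0.14, blocked 0.0852). Ryr1, Ryr3 and Itpr2, also named after their values were seen, were higher in thoracic libraries without overlap between the regions. Their log2 fold changes were -0.34 (SE 0.11), -0.28 (SE 0.09) and -0.46 (SE 0.14), and none was called in either fit. Itpr1 and Itpr3 had log2 fold changes of -0.03 (SE 0.14) and -0.15 (SE 0.19).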
